A study of Homo sapiens with 6 samples.

Results

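The numbered ZNF genes, whose symbol is ZNF followed only by digits, form the largest naming group of human zinc finger genes. This report covers the numbered ZNF genes that were expressed in T24 cells, taken as an RPKM (reads corrected for the length of the gene and the size of the library) of at least 1 in each of the 6 samples. By this rule 279 of the 478 numbered ZNF genes among the 58174 genes of the series were members, and 25 of the 478 were listed at 0 in every sample. The members were thus chosen by their RPKM levels in these same samples, and those levels are given as a description. T24 is a long-established line of human bladder cancer cells. The cells stably carried a lentiviral shRNA vector with either a control shRNA (shRNA-NC, n = 3) or an shRNA against UBC9 (shRNA-UBC9, n = 3), for which the methods give a single target sequence. Both groups thus share the cell line and the vector, and the comparison asks how the expression of these genes differed after UBC9 knockdown.

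Most zinc finger proteins of this family bind DNA through a row of C2H2 fingers, each of which holds a zinc ion and reads a few bases. Many carry a KRAB domain at the N terminus, which recruits the corepressor TRIM28. TRIM28 carries SUMO, a small protein attached to other proteins, and in that form it recruits SETDB1 and the NuRD complex, which leave silenced, methylated chromatin bound by the HP1 proteins. UBC9 is the enzyme that transfers SUMO to its targets. Many KRAB zinc finger genes stand in clusters on chromosome 19.

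The depth of the libraries relative to shRNA-NC replicate 1 ranged from 0.945 to 1.21, and 18059 to 19725 genes had an RPKM above 0. Of 15 urothelial and epithelial markers, 7 had a mean RPKM of at least 1 (KRT7, KRT8, KRT18, KRT19, GATA3, PPARG and EPCAM), while KRT5 and KRT20 were listed at 0. The summed RPKM of that list was 961 to 1130 in shRNA-NC and 437 to 572 in shRNA-UBC9. Among 8 leukocyte markers CD68 alone reached 1, with a summed list level of 2.50 to 4.59 in shRNA-NC and 20.4 to 50 in shRNA-UBC9, and the B cell marker MS4A1 was listed at 0. No fibroblast marker of 7 reached 1, and of 5 endothelial markers only CDH5 did, with summed levels of 2.64 to 3.26 in shRNA-NC and 0.349 to 1.07 in shRNA-UBC9. The part of these markers in the zinc finger results was not tested.

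As a group, the members were expressed at a low level and lay slightly higher in shRNA-UBC9. Their mean RPKM ranged from 1.17 to 28.9 with a median of 2.97, against a median of 8.19 for the 10159 other genes that met the same threshold, and 20 members exceeded 10. The summed RPKM of the 279 members was 1086, 1123 and 1104 in the shRNA-NC samples and 1210, 1215 and 1198 in the shRNA-UBC9 samples. The groups did not overlap in this sum, nor in the median member level, which was 2.62, 2.86 and 2.78 RPKM in shRNA-NC and 3.14, 3.18 and 3.07 RPKM in shRNA-UBC9. In bulk RNA, a changed number of cells of a kind and a changed amount of RNA per cell cannot be told apart.

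Each member was then set against its own mean over the samples on the log2 scale. The median deviation was -0.13, -0.01 and -0.05 in the shRNA-NC samples and 0.09, 0.09 and 0.04 in the shRNA-UBC9 samples, while the same median over the other genes stayed between -0.02 and 0.02. Within each group the shallowest library had the lowest member median. These were shRNA-NC replicate 1 and shRNA-UBC9 replicate 3, with relative depths of 1 and 0.945. The member median of shRNA-UBC9 replicate 3, the shallowest library of the 6, was 0.04, and the shRNA-NC medians were -0.01 and lower. The part of depth in the shift was not tested.

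**Figure D1:**
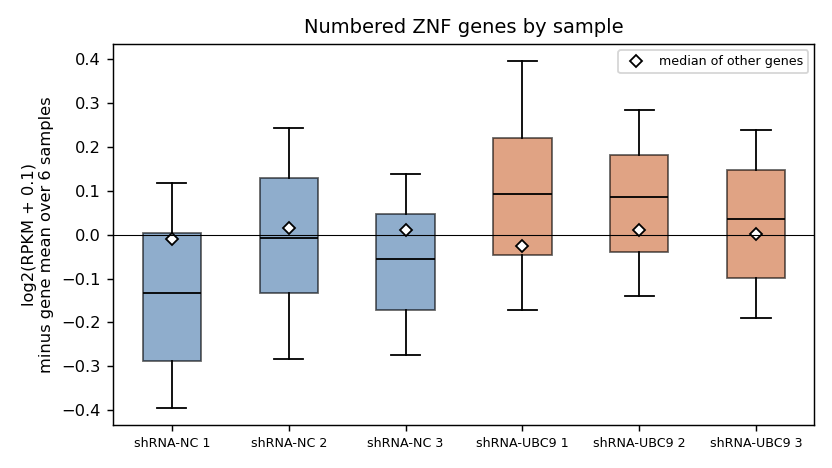
Deviation of log2(RPKM + 0.1) from the mean of each gene over the 6 samples (y axis) for the 279 expressed numbered ZNF genes in each sample (x axis); boxes span the quartiles with the median as a line, whiskers span the 10th to 90th percentile, and diamonds give the median of the 10159 other genes. The medians of the 3 shRNA-NC samples lie below 0 and those of the 3 shRNA-UBC9 samples above 0, while the diamonds stay between -0.02 and 0.02.

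The shift consisted of many small differences. The median log2 fold change (shRNA-UBC9 against shRNA-NC) was 0.165 over the members, with quartiles of -0.04 and 0.30, against -0.01 over the other genes and 0.005 over all 12428 genes tested. In 200 of 279 members (71.7%) the log2 fold change was above 0, compared with 49.2% of the other genes, and 164 members lay within 0.25 of 0. The 3 shRNA-UBC9 samples all exceeded the 3 shRNA-NC samples in 84 members and all lay below them in 28, where the background among the other genes was 25.0% higher and 26.6% lower. The members ranged from -1.13 to 1.89 and the far more numerous other genes from -3.22 to 7.41, and such a range widens with the number of genes. The quartiles of the other genes were -0.255 and 0.241. The median residual SD on the log2 scale was 0.147 in the members and 0.133 in the other genes.

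**Figure D2:**
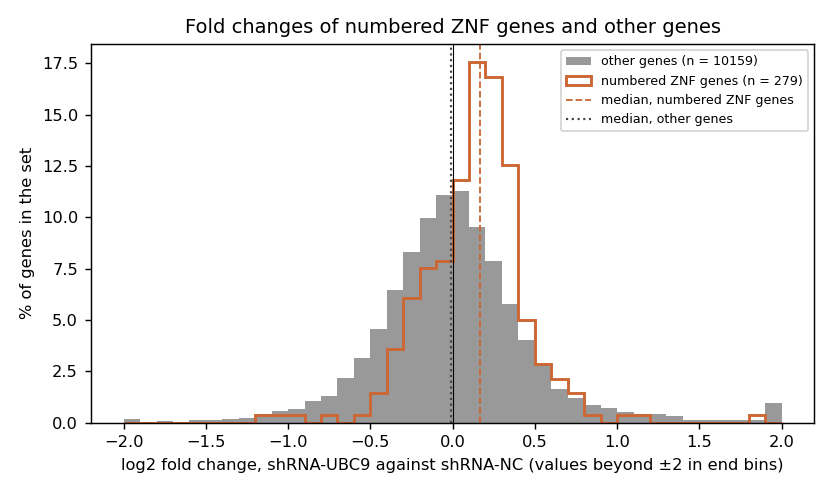
Percent of genes (y axis) by log2 fold change of shRNA-UBC9 against shRNA-NC (x axis, values beyond 2 in either direction in the end bins) for the 279 expressed numbered ZNF genes (line) and the 10159 other genes (filled). The numbered ZNF genes centre at 0.165 and the other genes at -0.01, and the ZNF distribution is thin below -0.5.

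In the limma fit over all 12428 tested genes, 44 members (15.8%) rose and 11 (3.94%) fell at an adjusted p below 0.05. Over all tested genes 18.8% rose and 18.0% fell, and over the other genes at the same threshold 18.1% rose and 19.1% fell. The members' share of rises was thus slightly below the background, and their share of falls lay well below it. With each sample scaled to the same median the members gave 34 rises and 19 falls, and with quantile normalization 34 and 22, so that the split depended on the scaling while the median log2 fold change stayed above 0 (0.123 and 0.102, against -0.05 in the other genes under both). Without shRNA-NC replicate 3 the counts were 21 and 6, and without shRNA-UBC9 replicate 2 also 21 and 6. The shares of the other genes dropped in the same fits, to 12.2% higher and 12% lower in the first and to 12.7% and 13.5% in the second. With |log2 fold change| > 1 and an adjusted p below 0.05, the DEG rule of the study, 3 members rose (ZNF697, ZNF438 and ZNF267) and 2 fell (ZNF362 and ZNF219), where 3.33% of the other genes rose and 2.04% fell.

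ZNF697 rose most. It lies on the minus strand of chr1:119619377-119648266 (GRCh38, GENCODE 44) and encodes 11 C2H2 fingers without a KRAB domain. Its RPKM was 1.81, 1.99 and 1.69 in the shRNA-NC samples and 7.92, 6.76 and 6.59 in the shRNA-UBC9 samples, so every knockdown sample was far above every control. The log2 fold change was 1.89 (SE 0.11, limma adjusted p = 2.39e-05). ZNF362 fell most. It lies on the plus strand of chr1:33256492-33300719 and encodes 6 fingers, also without a KRAB domain. Its RPKM was 7.49, 6.27 and 6.88 in shRNA-NC and 2.88, 2.83 and 3.55 in shRNA-UBC9. The groups were well apart, with a log2 fold change of -1.13 (SE 0.12, limma adjusted p = 3.7e-04).

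The 250 bases before the start sites of ZNF697 and ZNF362 are shown because these genes moved most in opposite directions; they are RefSeq sequences of GRCh38.p14, written 5′ to 3′ on the strand of the gene, with the GC box GGGCGG on either strand in capitals. The first stretch is chr1:119648267-119648516 on the minus strand and the second is chr1:33256242-33256491 on the plus strand.
ZNF697: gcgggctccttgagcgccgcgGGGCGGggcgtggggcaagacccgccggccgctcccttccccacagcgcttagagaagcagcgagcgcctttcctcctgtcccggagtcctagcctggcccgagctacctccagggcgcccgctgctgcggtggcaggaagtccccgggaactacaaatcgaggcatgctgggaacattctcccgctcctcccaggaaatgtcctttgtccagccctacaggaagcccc
ZNF362: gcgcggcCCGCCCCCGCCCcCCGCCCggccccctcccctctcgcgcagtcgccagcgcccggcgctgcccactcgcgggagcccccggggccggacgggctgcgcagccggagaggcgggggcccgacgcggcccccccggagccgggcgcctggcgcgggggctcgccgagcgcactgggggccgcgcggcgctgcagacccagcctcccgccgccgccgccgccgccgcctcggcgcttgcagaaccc

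The ZNF697 stretch held 1 GC box and 20 CpG dinucleotides, and the ZNF362 stretch held 3 GC boxes and 44 CpG dinucleotides. A GC box is common in such windows. It stood in 69.7% of the 238 members' promoters in the RefSeq table (250 bases before to 50 after the start site), in 73.0% of those of the other genes and in 44.6% of all 27305 promoters.

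The next members by size of the rise were of several kinds. ZNF438 (chr10:30820207-31031937, minus strand) measured 1.37, 1.09 and 1.71 RPKM in shRNA-NC and 3.01, 3.62 and 2.82 RPKM in shRNA-UBC9, with a log2 fold change of 1.14 (SE 0.17, limma adjusted p = 0.00186). ZNF267 (chr16:31873807-31917357, plus strand), a KRAB protein with 14 fingers, measured 3.53, 4.64 and 3.66 RPKM in shRNA-NC and 9.29, 8.30 and 6.80 RPKM in shRNA-UBC9, with a log2 fold change of 1.02 (SE 0.15, limma adjusted p = 0.00143). Neither gene overlapped between the groups, although the lowest knockdown values were closer to the controls than in ZNF697. ZNF319 (chr16:57994676-58000672, minus strand) was tighter than both, at 4.45, 4.28 and 3.66 RPKM in shRNA-NC and 6.94, 7.36 and 7.86 RPKM in shRNA-UBC9, with a log2 fold change of 0.83 (limma adjusted p = 8.23e-04).

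ZNF296, ZNF239, ZNF107, ZNF670, ZNF622 and ZNF462 completed the 10 largest rises, with log2 fold changes from 0.65 to 0.78. ZNF296 was among the less even of them, since shRNA-UBC9 replicate 1 stood at 1.78 RPKM while replicates 2 and 3 stood at 2.70 and 2.74. ZNF462, a protein with 33 fingers whose loss causes a developmental syndrome, was among the most even, at 2.012, 1.92 and 1.95 RPKM in shRNA-NC and 3.33, 2.97 and 3.07 RPKM in shRNA-UBC9. Of these 10 genes 7 had no KRAB domain and 1, ZNF296, lies on chromosome 19. The other 34 members that rose had log2 fold changes between 0.26 and 0.63.

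Among the members that fell, ZNF219, a partner of SOX9 in cartilage, followed ZNF362. It measured 6.68, 5.66 and 5.24 RPKM in shRNA-NC and 2.46, 2.96 and 3.12 RPKM in shRNA-UBC9, with a log2 fold change of -1.01 (SE 0.13, limma adjusted p = 8.48e-04). Its exons overlap those of another gene over 24.7% of their length, and reads there may belong to either gene. ZNF395, known as a factor that binds a papillomavirus promoter, measured 9.71, 9.09 and 9.9996 RPKM in shRNA-NC and 6.42, 3.64 and 4.94 RPKM in shRNA-UBC9. The log2 fold change was -0.96 (limma adjusted p = 0.0046), and the knockdown samples were spread over a wider range than the controls. Since 41.2% of the 100-base stretches of its transcript also occur in another gene, its values are uncertain.

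ZNF512 followed at -0.70 and ZNF714 at -0.54. For ZNF512 too, 32.0% of the 100-base stretches are shared with another gene. ZNF436, ZNF232, ZNF580, ZNF768 and ZNF445 fell by smaller amounts, with log2 fold changes between -0.46 and -0.33. ZNF445, a KRAB protein that protects imprinted genes, fell little but evenly, from 2.24, 2.31 and 2.31 RPKM in shRNA-NC to 1.81, 1.78 and 1.79 RPKM in shRNA-UBC9 (limma adjusted p = 0.0331). Its call was lost under 8 of 14 alternatives, among them the omission of any 1 library (limma adjusted p at most 0.107). The eleventh member that fell, ZNF740, had a log2 fold change of -0.32. Of the 10 largest falls 8 had no KRAB domain, and of all the members that fell 6 of 11 shared sequence or exons with another gene, compared with 14 of 44 that rose.

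**Figure D3:**
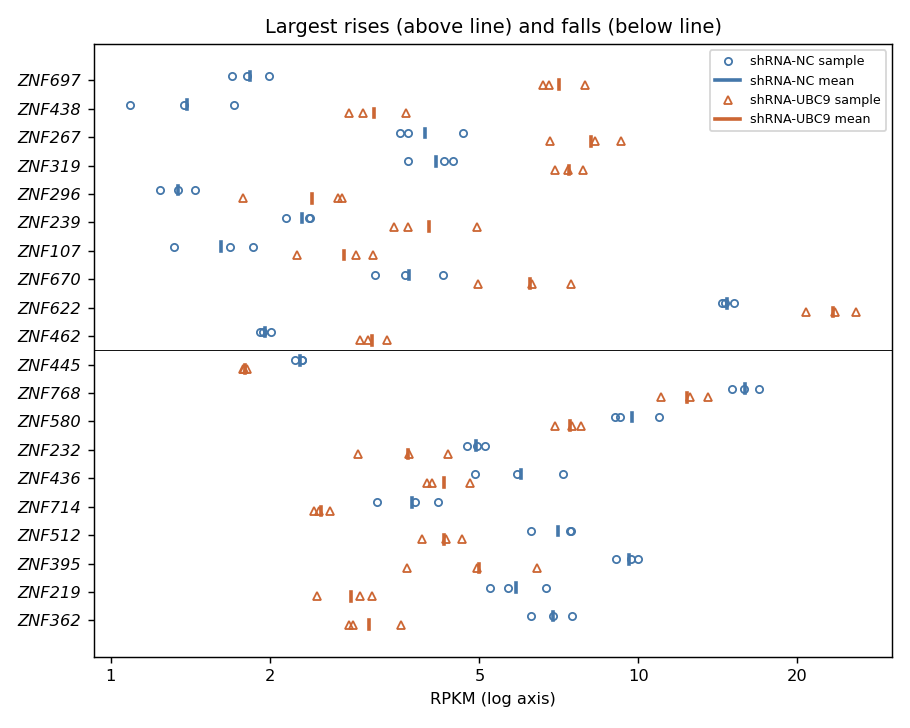
RPKM of the 10 members with the largest rises (above the line) and the 10 with the largest falls (below it) on a log axis; circles are the 3 shRNA-NC samples, triangles the 3 shRNA-UBC9 samples and vertical bars the group means. The groups do not overlap in any of the 20 genes, but these were chosen as the largest changes past the test, which favours such genes. Among the other genes the groups were apart in 25.0% (higher) and 26.6% (lower). ZNF697 shows the widest gap, from a mean of 1.83 to a mean of 7.09.

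The members with the highest levels did not share a direction. ZNF593, a factor of the large ribosomal subunit's assembly, had the highest mean RPKM and measured 28.0, 26.8 and 23.4 in shRNA-NC and 26.3, 35.02 and 33.6 in shRNA-UBC9, so that the groups overlapped (log2 fold change 0.27, limma adjusted p = 0.132). All of its exon length is overlapped by another annotated gene, and its level is uncertain. ZNF146, which consists almost only of zinc fingers, measured 17.9, 20.7 and 20.8 RPKM in shRNA-NC and 23.7, 24.8 and 22.7 RPKM in shRNA-UBC9. The groups did not overlap, but the difference of 0.26 on the log2 scale missed the threshold (limma adjusted p = 0.054). ZNF22 (log2 fold change -0.22) and ZNF598, the ubiquitin ligase that marks collided ribosomes (0.06), overlapped between the groups. ZNF622, a ribosome assembly factor, rose from 15.2, 14.6 and 14.4 RPKM to 20.8, 25.9 and 23.6 RPKM (log2 fold change 0.66, limma adjusted p = 0.00169).

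By role, 11 members were listed as acting outside DNA binding. Of these, 2 rose and 0 fell, near the 18.8% of all tested genes that rose and below the 18.0% that fell. The rising members were ZNF622 and ZNF330, a nucleolar protein, whose log2 fold change was 0.35. The median over the 11 was -0.02, below that of all members. One of them is ZNF451, a SUMO ligase that works with UBC9, which measured 2.52, 2.83 and 2.85 RPKM in shRNA-NC and 3.35, 3.13 and 2.61 RPKM in shRNA-UBC9. It overlapped between the groups (log2 fold change 0.14, limma adjusted p = 0.398).

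Of 20 members listed as binding promoters or joining chromatin complexes, 5 rose and 2 fell, beside 18.8% and 18.0% of all tested genes. Their median log2 fold change was 0.20. The 2 that fell were ZNF219 and ZNF395. ZNF281, a factor of stem cells and of the epithelial-mesenchymal transition, rose from 8.24, 9.11 and 9.13 RPKM to 14.02, 11.9 and 10.6 RPKM (log2 fold change 0.45, limma adjusted p = 0.017). ZNF687, which forms a complex with ZMYND8, rose by 0.35 on the log2 scale, and its partners ZNF592 and ZNF532 had log2 fold changes of 0.23 and 0.17 that missed the threshold. ZNF335, a subunit of a histone methyltransferase complex, rose by 0.36 and ZNF462 by 0.65. ZNF410, the activator of the NuRD gene CHD4, rose by 0.27 (limma adjusted p = 0.045), but 80.5% of the 100-base stretches of its transcript occur in another gene. CHD4 itself had a log2 fold change of -0.08 (limma adjusted p = 0.553). Of 14 alternatives, ZNF410 lost the call under 10, ZNF335 under 8, ZNF687 under 5 and ZNF281 under 1. The calls of ZNF462, ZNF219 and ZNF395 were kept under each. The exons of ZNF687 overlap those of another gene over 12.1% of their length.

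Of 10 members listed as binding repeats or acting with TRIM28, 1 rose and 0 fell, beside the same 18.8% and 18.0%. Their median log2 fold change was 0.002. This list was written from general knowledge and does not hold every KRAB member. Over the 155 members with a KRAB domain the median was 0.176, with 21 rises and 2 falls. The riser was ZNF324, at 1.59, 1.79 and 1.64 RPKM in shRNA-NC and 2.29, 2.40 and 2.20 RPKM in shRNA-UBC9 (log2 fold change 0.43, limma adjusted p = 0.0169). Its level is uncertain, since 33.0% of its 100-base stretches occur in another gene. The exon overlap of ZNF324 with another gene was 25.1%. ZNF91, which silences young retroelements, had a log2 fold change of 0.27 and overlapped between the groups. ZNF202 measured 3.93, 3.71 and 3.81 RPKM in shRNA-NC and 2.39, 3.64 and 3.72 RPKM in shRNA-UBC9, where replicate 1 alone lay far below the controls.

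A list of corepressor and heterochromatin genes, not all of them tied to KRAB proteins, had a median on the other side of 0 from the members' median. Of 27 corepressor and heterochromatin genes tested, 11 fell and 1 rose, with a median log2 fold change of -0.185, against 18.0% of all tested genes that fell and 18.8% that rose. Among them, 2 genes of the HP1 family fell. CBX5 measured 16.6, 20.3 and 16.3 RPKM in shRNA-NC and 9.46, 7.03 and 9.24 RPKM in shRNA-UBC9 (log2 fold change -1.04, limma adjusted p = 0.00104). CBX1 had a log2 fold change of -0.47, while CBX3, the remaining HP1 gene, stood at -0.02 and did not pass the test.

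HDAC1, a deacetylase of NuRD, measured 61.5, 63.98 and 62.1 RPKM in shRNA-NC and 30.1, 33.0 and 38.5 RPKM in shRNA-UBC9 (log2 fold change -0.89, limma adjusted p = 5.21e-04). The groups were far apart. HDAC2 and CHD4, also of NuRD, had log2 fold changes of -0.185 and -0.08 and did not pass the test (limma adjusted p = 0.126 and 0.553). The NuRD remodeller CHD3, the histone methyltransferases SUV39H2 and EHMT2, MPHOSPH8 of the HUSH complex, UHRF1, which reads methylated DNA and histones, and the chromatin assembly subunits CHAF1A and CHAF1B also fell, with log2 fold changes between -0.56 and -0.38. Of these, CHAF1B and EHMT2 each lost the call under 7 of 14 alternatives, UHRF1 under 5 and MPHOSPH8 under 3. CHD3 and CHAF1A each lost it under 2, and SUV39H2 kept it under each. MORC2, a partner of HUSH, rose by 0.27 but lost the call under 10 of 14 alternatives (limma adjusted p = 0.0413, at most 0.152). TRIM28 itself measured 104, 93.3 and 86.0 RPKM in shRNA-NC and 48.6, 70.9 and 81.4 RPKM in shRNA-UBC9. The TRIM28 log2 fold change of -0.52 lay at the edge of the threshold (limma adjusted p = 0.0499, from 0.0166 to 0.151 over 14 alternatives, 9 of which lost the call). SETDB1 had a log2 fold change of -0.12 and did not pass the test (limma adjusted p = 0.319). The count of falls in this list ranged from 5 to 13 over the alternatives. It was 5 each without shRNA-NC replicate 1 or 2, where 13.9% and 14.5% of all tested genes fell, so that the list then lay closer to the background. It was 6 without shRNA-NC replicate 3 and 7 without shRNA-UBC9 replicate 2, where 11.3% and 12.7% of all tested genes fell, and 7 with no filter.

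Among genes of the SUMO pathway, the activating enzyme subunits SAE1 and UBA2 fell, with log2 fold changes of -0.50 and -0.32 (limma adjusted p = 0.00532 and 0.0278). SUMO2 rose by 0.28 on the log2 scale (limma adjusted p = 0.019). Over all tested genes 18.8% rose and 18.0% fell. Of 14 alternatives, UBA2 lost the call under 6 and SUMO2 under 5, while SAE1 kept it under each. SUMO3 had a log2 fold change of 0.02 and did not pass the test.

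**Figure D4:**
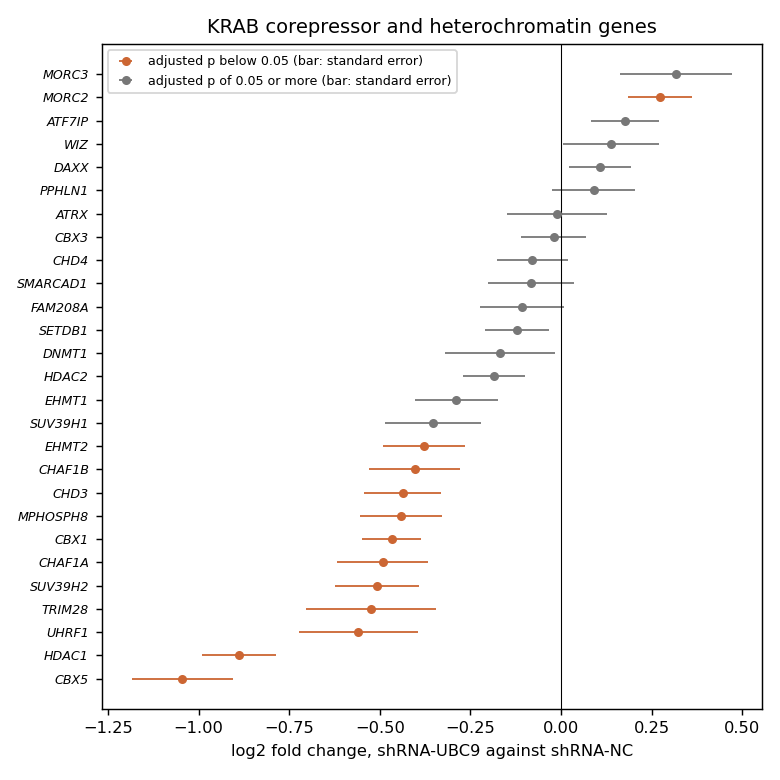
Log2 fold change of shRNA-UBC9 against shRNA-NC (x axis) for the 27 KRAB corepressor and heterochromatin genes (y axis), with bars for the standard error of the fit; coloured points have an adjusted p below 0.05. Most coloured points lie to the left of 0, led by CBX5 at -1.04 and HDAC1 at -0.89, while MORC2 lies to the right at 0.27.

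The members were next divided by what their proteins hold. These divisions were made after the fold changes had been seen and carry no test. Of 277 members found in GENCODE 44, 272 had at least 1 C2H2 finger pattern in the canonical protein (median 10, highest 40 in ZNF142), and 5 had none (ZNF185, ZNF330, ZNF503, ZNF703 and ZNF839). A KRAB domain was found in 155. The KRAB members had a median log2 fold change of 0.176 with 76.1% above 0, and the 122 without KRAB had 0.137 with 66.4% above 0. The KRAB members held 21 rises and 2 falls (13.5% and 1.29%), and those without KRAB held 23 rises and 9 falls (18.9% and 7.38%). Over all tested genes 18.8% rose and 18.0% fell. The range was also narrower with KRAB, from -0.47 to 1.02, than without, from -1.13 to 1.89. The KRAB members had a lower median RPKM, 2.22 against 4.43, and a larger residual SD, 0.166 against 0.134. The part of level in these differences was not tested.

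By finger number, the median log2 fold change was 0.06 in 45 members with 0 to 4 fingers, 0.14 in 87 with 5 to 9, 0.17 in 89 with 10 to 14, and 0.22 in 56 with at least 15. The share above 0 went from 60.0% through 67.8% and 75.3% to 82.1%. The share that passed the test upward went the other way, from 22.2% to 12.5%, and in the class with at least 15 fingers 7 members rose and 0 fell. The median mean RPKM went along the same classes from 5.54 to 2.34 and the residual SD from 0.118 to 0.171, so the class with most fingers was also the lowest and most variable. The part of level in this order was not tested. Members whose proteins held 0, 1 and at least 2 SUMO acceptor patterns had medians of 0.170, 0.165 and 0.158. Their shares above 0 were 74.4%, 70.8% and 64.6%. In the same order 14.6%, 15.4% and 20.8% of them rose and 4.27%, 1.54% and 6.25% fell. Over all tested genes 18.8% rose and 18.0% fell. The median RPKM of these classes was 2.88, 3.03 and 3.71, and the part of level was not tested.

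**Figure D5:**
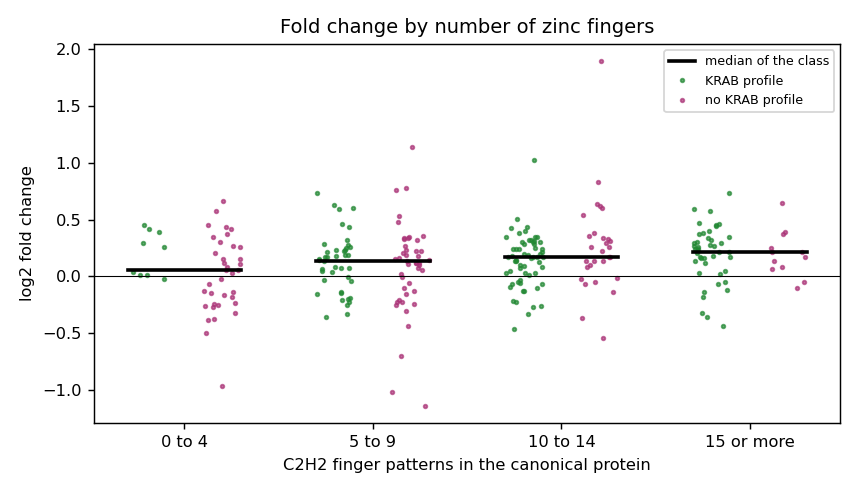
Log2 fold change of each member (y axis) by the number of C2H2 finger patterns in its canonical protein (x axis), for members with and without a KRAB domain (colours, spread sideways for visibility); horizontal lines give the median of each class. The medians go from 0.06 in the class with fewest fingers to 0.22 in the class with most, with wide overlap between the classes.

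The members were also set against other genes of like level and length, with no test. In each of 5 bands of mean RPKM the members' median exceeded that of the other genes in the same band, for example 0.135 against 0.002 at 1 to 2 RPKM, 0.201 against -0.01 at 2 to 3 RPKM, and 0.115 against -0.02 above 10 RPKM. In 4 bands of transcript length the members' medians lay between 0.14 and 0.21 and those of the other genes between -0.02 and 0.004. Leaving out members that share at least 5% of their 100-base stretches or at least 10% of their exon length with another gene left 194 members, with a median of 0.173, 30 rises and 5 falls.

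Chromosome 19 holds 118 of the members with a position (42.6%), against 5.70% of the other genes. These members had a median of 0.174 with 78.8% above 0, compared with 0.138 and 66.7% for the 159 members elsewhere. The 543 other genes on chromosome 19 had a median of 0.03 with 53.8% above 0. Few of the chromosome 19 members passed the test, with 11 rises and 2 falls, against 33 and 9 elsewhere. The 11 rises and 2 falls were 9.32% and 1.69% of the chromosome 19 members, where 23.4% of the other chromosome 19 genes rose and 12.7% fell. The median RPKM of the chromosome 19 members was 2.17, against 3.95 in the members elsewhere.

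Members that neighbour each other were compared as runs, in which consecutive members lie at most 250000 bases apart; this too was done after the fold changes had been seen, with no test. Of 12 runs with at least 5 members, 10 had a median log2 fold change above 0 and 2 below it. In these runs 87 of 114 members lay above 0, beside 71.7% of all members and 78.8% of the chromosome 19 members. In a run on the short arm, chr19:9140397-9675100, 4 of 7 members rose and 6 of 7 had a log2 fold change above 0 (median 0.317). Among all members 15.8% rose, and among all tested genes 18.8%. ZNF562 measured 2.11, 2.51 and 2.18 RPKM in shRNA-NC and 3.94, 3.44 and 3.10 RPKM in shRNA-UBC9 (log2 fold change 0.60, limma adjusted p = 0.00698). Its exons overlap those of another gene over 50.7% of their length. ZNF121 measured 3.23, 4.43 and 3.06 RPKM in shRNA-NC and 5.33, 4.86 and 4.71 RPKM in shRNA-UBC9 (log2 fold change 0.48, limma adjusted p = 0.0315). ZNF317 had a log2 fold change of 0.40 and ZNF561 of 0.32, and the latter passed only just (limma adjusted p = 0.0492). Of 14 alternatives, ZNF121 lost the call under 6, ZNF317 under 2 and ZNF561 under 12, while ZNF562 kept it under each. ZNF266, in the same run, went the other way with a log2 fold change of -0.23, which missed the threshold (limma adjusted p = 0.07).

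At chr19:43912624-44500524 all 9 members had a log2 fold change above 0 (0.16 to 0.43), and all 9 carry a KRAB domain. Of these, ZNF45 and ZNF155 rose (limma adjusted p = 0.0451 and 0.0418), and they lost the call under 10 and 7 of 14 alternatives. On chromosome 7, at chr7:149069641-149497817, all 7 members lay above 0 and ZNF212, ZNF783 and ZNF746 rose. These calls were lost under 11, 3 and 8 of 14 alternatives, in that order. The 2 largest runs were at chr19:52012765-53580269, with 20 of 23 members above 0 and a median of 0.25, and at chr19:57191500-58481230, with 19 of 24 above 0 and a median of 0.154. In the first of them ZNF28 and ZNF816 rose, and in the second ZNF324, which shares sequence and exons with another gene. ZNF28 lost the call under 8 of 14 alternatives and ZNF324 under 4, while ZNF816 kept it under each. A run at chr19:20923222-21388582 held 2 of 6 members above 0, with a median of -0.09 and 1 fall, in ZNF714. Runs at chr16:30378106-30787205 (5 of 9 above 0) and chr19:55476617-55645623 (4 of 7) had medians of 0.08 with 1 fall each. Neighbouring zinc finger genes are often close paralogs, so the members of a run share sequence as well as position.

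The promoters of the members were searched for 12 short motifs on both strands. They were the GC box GGGCGG, the E-box CACGTG, the cAMP response element TGACGTCA, the AP-1 site TGANTCA, the ETS site CCGGAAGT, 2 NF-kB patterns, and elements known for interferon response factors, NRF1, YY1 and ZNF143 (a short form, ACTACAA, and a long form that contains it). The search and the choice of the motif shown were made after the fold changes had been seen. TGACGTCA, a palindrome bound by CREB and ATF factors, stood in 13 of 238 members' promoters (5.46%), against 3.48% of those of the other genes and 1.98% of all 27305 promoters. It stood in 7 of the 37 promoters of members that rose (18.9%), in 0 of the 10 of members that fell and in 6 of 191 of those that did not pass the test (3.14%). Among other genes that rose the share was 4.09%.

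The 40-base windows around the motif are shown for the 7 members that rose and for ZNF266 and ZNF426, which hold it in the same chromosome 19 run without passing the test; capitals mark TGACGTCA, and the sequences are from RefSeq (GRCh38.p14), 5′ to 3′ on the strand of the gene.
ZNF438: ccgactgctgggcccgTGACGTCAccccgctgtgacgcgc
ZNF562: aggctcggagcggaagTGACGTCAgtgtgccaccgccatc
ZNF121: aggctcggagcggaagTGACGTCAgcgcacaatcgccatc
ZNF561: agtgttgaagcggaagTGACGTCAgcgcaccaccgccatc
ZNF266: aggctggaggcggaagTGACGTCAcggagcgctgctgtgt
ZNF426: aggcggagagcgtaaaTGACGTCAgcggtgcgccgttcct
ZNF200: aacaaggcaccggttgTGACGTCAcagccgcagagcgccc
ZNF335: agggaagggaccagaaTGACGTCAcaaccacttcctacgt
ZNF330: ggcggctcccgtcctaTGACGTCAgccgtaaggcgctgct

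The windows lie at chr10:31031849-31031888 (ZNF438), chr19:9675084-9675123 (ZNF562), chr19:9584531-9584570 (ZNF121), chr19:9621232-9621271 (ZNF561), chr19:9435567-9435606 (ZNF266), chr19:9538643-9538682 (ZNF426), chr16:3235188-3235227 (ZNF200) and chr20:45972397-45972436 (ZNF335), all on the minus strand, and at chr4:141220858-141220897 (ZNF330) on the plus strand. The motif began between 7 and 53 bases before the start site except in ZNF335, where it began 217 bases before it. The windows of ZNF121, ZNF561 and ZNF562 were alike at 33 to 35 of 40 bases, so these 3 promoters are not independent cases, and the run on chromosome 19 supplied 5 of the 13 members with the motif. ZNF266 and ZNF426 matched them at 22 to 25 of 40 bases. ZNF200 measured 2.17, 2.84 and 2.13 RPKM in shRNA-NC and 3.30, 3.89 and 3.20 RPKM in shRNA-UBC9 (log2 fold change 0.53, limma adjusted p = 0.0196), without overlap. Of the 7 genes, ZNF438 and ZNF562 passed the test under each of 14 alternatives. The call was lost under 12 of them in ZNF561, under 8 in ZNF335 and under 6 in ZNF121. In ZNF200 and ZNF330 it was lost under 4 each. A match in these windows describes the sequence and shows no binding.

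The numbered ZNF genes outside the threshold had a median closer to 0. Of the 199, 86 had enough signal to be tested, and 8 of them rose and 4 fell, with a median log2 fold change of 0.09. Among them ZNF488, named after its values were seen, had the largest change of any tested numbered ZNF gene. It measured 7.13, 7.18 and 7.41 RPKM in shRNA-NC and 0.754, 1.12 and 1.52 RPKM in shRNA-UBC9 (log2 fold change -2.62, limma adjusted p = 9.88e-05), and the single value under 1 placed it outside the rule. The 65 genes of the ZSCAN, ZKSCAN, ZBTB and ZFP families at the members' threshold gave 12 rises and 6 falls, with a median of 0.106 and 44 of 65 above 0. Over all tested genes 18.8% rose and 18.0% fell, so the rises of these families lay at the background. At the edge of the rule, the lowest values of the members ZNF268, ZNF559 and ZNF771 were 1.001, 1.008 and 1.012 RPKM, and those of ZNF852, ZNF8 and ZNF141, just outside it, were 0.989, 0.987 and 0.978 RPKM. Their log2 fold changes were -0.44, 0.07 and -0.25 inside and -0.18, -0.004 and -0.50 outside. Because the rule asks for an RPKM of at least 1 in both groups, genes that fell below it or came up from below it in either group are not among the members.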

How the data were processed

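PolyA RNA of T24 cells was sequenced from 3 samples carrying the control shRNA and 3 carrying the UBC9 shRNA, grouped by their titles. After adaptor trimming, the authors aligned reads to GRCh38 in the CLC Biomedical Genomics Workbench, and the deposited values are RPKM per gene; the annotation release, the use of strand and the handling of reads with several matches are not given in the sources used here. Nothing in the labels says that the samples came from separate cultures or names a batch, so p-values measure only the spread between these samples. RPKM is not corrected for RNA composition.

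The 12428 genes that reached 0.5 RPKM in 3 or more of the 6 samples were compared on log2(RPKM + 0.1) with limma 3.58.1 in R 4.3.3 (eBayes with an intensity trend, Benjamini-Hochberg adjustment over all of them). Fold changes are on this scale, which understates those of low genes. With 3 samples a group, the smallest p of an exact permutation test is 0.1. The absolute depth is unknown; relative depth was read from the steps of low values. Identical values above 0 in 2 samples occurred in 0 genes. The fit was tested on simulated data. The level of the targeted gene and some listed genes are not reported here.

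The members and gene lists were chosen with earlier results of these data known, and lists were written from general knowledge. Named members are the 10 largest rises and falls past the test, the 5 highest levels, 3 genes on each side of the threshold and the called members of role lists; other genes were named after their values were seen. Fingers were counted by the C2H2 pattern and shared sequence by exact 100-base matches. KRAB domains were found by a 40-residue profile of 253 coding sequences that matched a KRAB pattern, with a fixed score of at least 5. All of this used GENCODE 44, where 277 of 279 members were found. Promoters came from the RefSeq table, which held 238 members. Python 3.11.15, pandas 2.3.3 and matplotlib 3.10.9 were used. Alternatives were other pseudocounts, filters and scalings, a fit with the replicate number as a block, a fit lacking the intensity trend, the omission of each library in turn, other member thresholds and, added after seeing the data, leaving out members with shared sequence.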

Additional observations from a re-analysis of the deposited data

How the results depend on the processing

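The count of members past an adjusted p of 0.05 in limma, 55, was 31 (24 rises and 7 falls) with the replicate number as a block, and 27 to 54 when 1 library was left out. It was 27 without shRNA-NC replicate 3 and 27 without shRNA-UBC9 replicate 2. Without members that share sequence or exons, it was 35 of 194, since fewer members were counted. The count by the DEG rule, 5, was 1 with a pseudocount of 1 (ZNF697), 3 to 5 when 1 library was left out (3 without shRNA-NC replicate 1), and 3 of 168 members with a member threshold of 2 RPKM. The median log2 fold change, 0.165, was 0.102 with quantile normalization and 0.118 to 0.177 when 1 library was left out, and stayed above 0 under each alternative. With no filter, 37 members passed (30 rises and 7 falls). Median scaling moved the median over all tested genes from 0.005 to -0.04.

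Of the 55 called members, 24 (19 rises and 5 falls) passed under each alternative, and 31 missed the threshold under at least 1 of them, but 0 changed direction. The 10 largest rises and the 5 largest falls are among the 24. The log2 fold change of ZNF559 turned to -0.0121 with quantile normalization and ranged from -0.0521 to 0.162 when 1 library was left out (-0.0111 without shRNA-NC replicate 1, lowest without shRNA-UBC9 replicate 1). Likewise, the log2 fold change of ZNF598 ranged from -0.0291 to 0.152 when 1 library was left out (-0.00927 without shRNA-NC replicate 3, lowest without shRNA-UBC9 replicate 3). Neither passed the test. The cause of these changes was not tested.

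The replicate numbers shared by the groups did not pair the samples. The deviations of same-numbered samples from their group means correlated at -0.37, 0.07 and -0.17 across all tested genes, so the block is not used elsewhere. With it, 7 corepressor and heterochromatin genes fell instead of 11. Depth is known only relative to shRNA-NC replicate 1, and no interval was given for low values. Most members lie under 5 RPKM, where 1 read weighs more.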
